A study of Mus musculus with 20 samples.

Results

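The relative levels of mRNAs in heavy and light polysome fractions were compared after transfection of an siRNA against Rpl10a. The cells were E14, a pluripotent mouse embryonic stem cell line. The 4 libraries titled Rpl10a siRNA, 2 of heavy and 2 of light fractions, were taken by their labels from the 20 libraries of the series, and all 8084 listed transcripts were used. The heavy pool held mRNAs carrying at least 4 ribosomes. The light pool held everything else in the sucrose gradient, which comprised free ribonucleoproteins, ribosomal subunits, monosomes and polysomes of 2 to 3 ribosomes. The other siRNA arm, given MISSION siRNA Universal Negative Control 2 and split into the same pools with 2 libraries each, is shown for comparison. Both arms were wild-type E14 cells grown with Leukemia Inhibitory Factor, transfected with Lipofectamine 2000 and harvested after 1 min in 100 µg/ml cycloheximide. The labels name a single siRNA product against Rpl10a (SASI_Mm01_00200342), and no Ribo-Seq library was made from siRNA-treated cells.

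In a sucrose gradient, mRNAs separate by the number of ribosomes they carry, so that the deep fractions hold mRNAs under active translation and the top holds untranslated mRNAs and those with few ribosomes. How far an mRNA can travel also depends on the length of its coding sequence, since a short reading frame has room for few ribosomes. RPL10A is a protein of the large ribosomal subunit and forms the L1 stalk, near the site from which spent tRNA leaves the ribosome. Cycloheximide stalls elongating ribosomes and keeps polysomes together during lysis.

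Values were the read signals that the authors deposited as RPM, which are scaled to the size of each library and not by transcript length. A difference between pools is therefore relative to the other transcripts of the same pool, and the amount of RNA in each pool was not measured. As bulk lysates were used, fewer cells with an mRNA and less of it per cell cannot be told apart. The values summed to 943664 and 997808 in the heavy libraries and to 948803 and 997609 in the light libraries of the Rpl10a siRNA, and read depth is unknown. The files give UCSC transcript identifiers without gene names, and none matched the reference tables used here. The extent of the Rpl10a knockdown and the stem cell markers were therefore not checked.

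After Rpl10a siRNA, 4340 transcripts (53.7%) differed in RPM between the heavy and light pools, relative to the other transcripts of each pool. Of all 8084, 2556 (31.6%) were higher in heavy and 1784 (22.1%) were lower in heavy than in light fractions (limma on log2(RPM + 1), Benjamini-Hochberg adjusted p below 0.05). The median difference, heavy minus light, was 0.69 on the log2 scale among those higher in heavy and −0.82 among those lower in heavy. The standard error of a difference had a median of 0.16, and the smallest difference called was 0.28. These shares are the background against which any list of transcripts in this comparison has to be read.

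The transcripts called higher in heavy had a median of 93.5 and 91.25 RPM in the 2 heavy libraries, against 56.2 and 55.3 RPM in the light libraries. They took 48.6% and 46.9% of all signal in the heavy libraries, against 28.4% and 27.4% in the light libraries. The transcripts called lower in heavy had a median of 32.8 and 34.85 RPM in the heavy libraries, against 64.75 and 65.4 RPM in the light libraries. Their share of the signal was 17.7% and 19.8% in heavy and 39.3% and 40.1% in light libraries. The replicate libraries of each pool lay close together in all these sums. As the calls chose the transcripts, these values describe their size and give no further support.

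The remaining 3744 transcripts were not called. For 1493 of them the 95% confidence interval of the difference lay wholly within a 1.5-fold change in either direction. Their RPM was alike in the pools to that precision. Equal RPM does not mean that an mRNA was split evenly, as the amount of RNA in each pool was not measured. For the other 2251 the interval reached beyond 1.5-fold, and whether their RPM was alike was not resolved in this fit of 2 libraries a group. The fit had no block for replicate number. With such a block within each siRNA 5575 transcripts were called, among them all 2556 and all 1784 above. Part of the uncalled transcripts were thus called there. Uncalled transcripts took 33.6% and 33.3% of the signal in heavy libraries, against 32.3% and 32.5% in light libraries.

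The differences were broad and shallow on the heavy side, and fewer but larger on the light side. The median over all transcripts was 0.16, and 59.4% of transcripts had a difference above 0. Yet 301 transcripts were more than 2-fold higher in heavy while 574 were more than 2-fold lower, and 299 and 567 of these were called. Beyond 4-fold, 0 transcripts were higher in heavy and 66 were lower, all 66 called. The 1st and 99th percentiles were −1.93 and 1.23, and the extremes were −3.42 and 1.84. A test against a 1.5-fold difference, in place of no difference, left 181 transcripts (2.24%) higher and 356 (4.4%) lower in heavy (limma, adjusted p below 0.05), so the side with more calls turned with the size asked for.

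**Figure D1:**
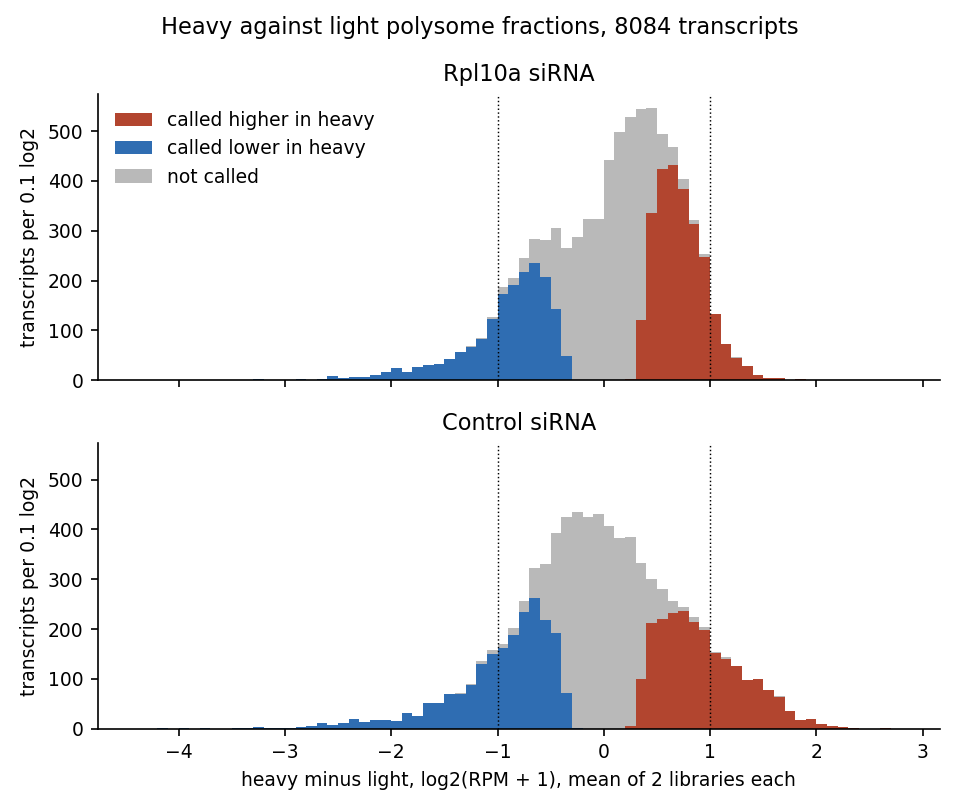
Histograms of the heavy minus light difference in log2(RPM + 1), in bins of 0.1, for the Rpl10a siRNA (top) and the control siRNA (bottom), with called transcripts coloured and dotted lines at 2-fold. With Rpl10a siRNA the right-hand tail beyond 2-fold holds 301 transcripts and the left-hand tail 574, against 858 and 820 with control siRNA.

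The larger tail on the light side appeared in every pairing of single libraries. Subtracting each light from each heavy library of the Rpl10a siRNA gave 362 to 579 transcripts more than 2-fold higher in heavy and 557 to 796 more than 2-fold lower, with more on the lower side in all 4 pairings. These pairings share libraries and are not independent of each other. The larger tail on the light side also appeared with library totals set equal, with 310 higher and 571 lower, and with library medians set equal, with 228 and 648. In bins of 0.2 on the log2 scale, the fullest bin began at 0.4 in both pairings with the first heavy library and at 0.2 in both with the second.

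The libraries of a pool ranked transcripts alike. Pearson correlations on log2 values were 0.975 between the 2 heavy and 0.983 between the 2 light libraries, and between 0.895 and 0.926 for a heavy with a light library. Replicates of the heavy pool differed more, by a median of 0.24 on the log2 scale, than those of the light pool, by 0.14. The corresponding medians were 0.16 in heavy and 0.13 in light libraries of the control siRNA. The test used 1 spread for all 4 groups although they varied unequally. A fit of the 4 libraries alone called 2104 higher and 1550 lower, of which 2091 and 1539 were among the calls above.

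Taken by library number, the difference of the first heavy and light libraries and that of the second had the same sign in 86.4% of transcripts and correlated across transcripts with r = 0.90. With the numbers crossed, 77.7% had the same sign and r was 0.65. Transcripts are not independent replicates, so these are descriptions. All 2556 and all 1784 called transcripts had heavy and light libraries that did not overlap, which was also the case for 44.6% of the uncalled ones and 74.3% of all.

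**Figure D2:**
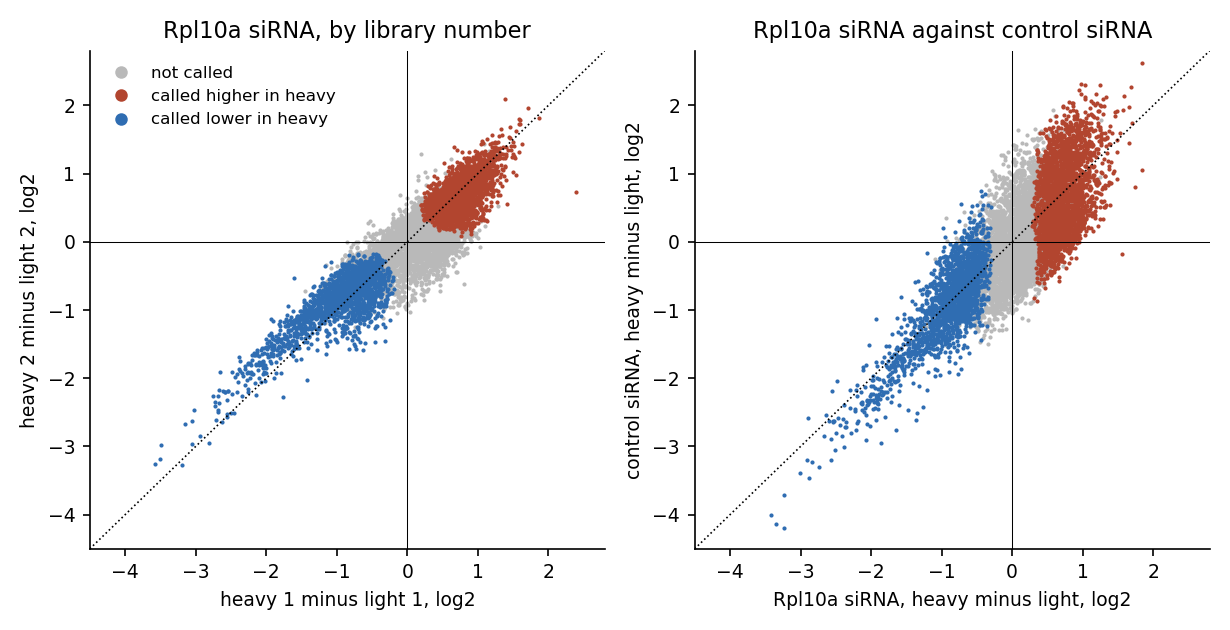
Left, heavy minus light difference of the first libraries against that of the second with Rpl10a siRNA, 1 point per transcript; right, the mean difference with Rpl10a siRNA against that with control siRNA (log2 scales, dotted line at equality). Same-numbered differences share their sign in 86.4% of transcripts, and differences with Rpl10a and control siRNA in 76.3%.

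Named transcripts were the 2 with the largest difference in each direction among called ones at or above the median level. Their heavy and light libraries also had to be free of overlap, so that separation was a condition of being named. uc012dmm.1 had 380.7 and 399.3 RPM in heavy libraries, against 115.5 and 102.3 RPM in light libraries. The replicates of each pool differed little. The difference was 1.83 on the log2 scale (SE 0.11, limma adjusted p = 3.47e-05), a 3.56-fold higher value in heavy fractions.

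uc009okg.1 had 274.2 and 276.1 RPM in heavy libraries, against 90.8 and 78.3 RPM in light libraries. The heavy replicates were nearly equal. Its difference was 1.69 (SE 0.14, limma adjusted p = 9.09e-05).

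On the light side the differences were larger. uc009fgp.1 had 24.7 and 30.3 RPM in heavy libraries, against 305.5 and 299.5 RPM in light libraries. The difference was −3.42 (SE 0.15, limma adjusted p = 2.77e-05), which made it 10.7-fold higher in light fractions on the log2(RPM + 1) scale.

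uc008nzf.1 had 17.9 and 27.8 RPM in heavy libraries, against 213.2 and 260.9 RPM in light libraries. Replicates differed more here than for the other named transcripts, but by far less than the pools did. The difference was −3.34 (SE 0.23, limma adjusted p = 5.41e-05). All 4 transcripts are known here by identifier only, so nothing is said of what they encode.

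**Figure D3:**
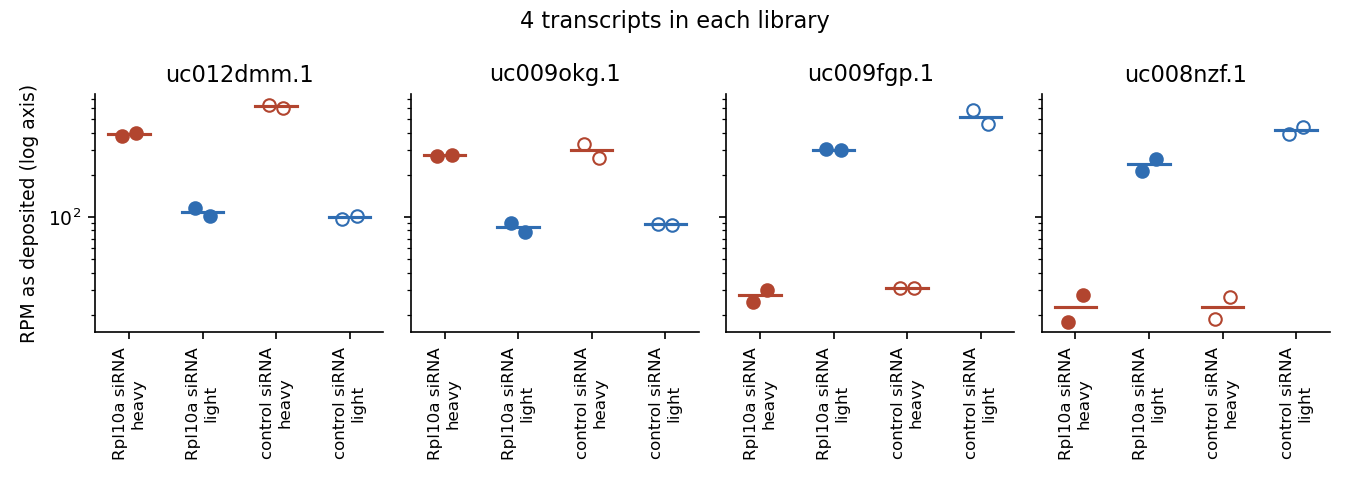
RPM of the 4 named transcripts in every library on a log axis, with 1 point per library and lines at group means; heavy libraries are red, light libraries blue, control siRNA open symbols. With Rpl10a siRNA uc012dmm.1 and uc009okg.1 lie at or above 274.2 RPM in both heavy libraries, and uc009fgp.1 and uc008nzf.1 lie at or below 30.3 RPM there.

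The heavy side was more common among transcripts with much signal. Transcripts were put into quintiles, 5 equal bins, by level. In the lowest quintile by mean RPM over the 8 RNA-seq libraries, 15.2% were called higher in heavy and 18.9% lower in heavy. In the highest quintile, 44.7% were called higher and 24.98% lower. Heavy minus light had a median of 0.04 in the lowest quintile and 0.27 in the highest, and this median was larger in each quintile than in the one below. With control siRNA the median also rose at each step, from −0.23 in the lowest quintile to 0.26 in the highest. The median SE was 0.20 in the lowest quintile and 0.13 in the highest, and the part of precision in the number of calls was not tested. RPM is not scaled by length, and these quintiles therefore mix abundance with transcript length.

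The tail of transcripts more than 2-fold lower in heavy was spread over all levels, with 90 in the lowest quintile and 151 in the highest. The tail more than 2-fold higher held 35 in the lowest quintile and 113 in the highest. The most abundant transcripts dominated the light pool more than the heavy pool. The top 10 transcripts of a library took 4.54% and 5.36% of the signal in heavy libraries, against 7.80% and 8.44% in light libraries. The top 100 took 21.8% and 24.96% in heavy, against 29.3% and 31.2% in light libraries. The groups did not overlap in either measure, although an exact permutation test of 2 libraries against 2 can give no two-sided p below 0.333. The replicate heavy libraries shared 94 of their top 100 transcripts, as did the light libraries, and a heavy and a light library shared 73 to 77. With control siRNA the top 10 took 4.36% and 4.54% of the signal in heavy libraries, against 9.76% and 9.67% in light libraries.

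Ribosome footprints gave a readout that is scaled per length and independent of the polysome libraries. Ribo-Seq sequences the mRNA fragments that ribosomes protect from RNase. It was available for total ribosomes of 3 E14 lines, none of which received an siRNA. Each line carried an epitope tag at 1 endogenous allele, namely 3xFLAG-Rpl10a, Rps25-3xFLAG or Rpl22-3xHA. In the 2 total libraries of the Rpl10a line, transcripts called higher in heavy had a median footprint density of 51.15 and 53.85 RPKM, a read density scaled per length as well as per library. Those called lower in heavy had 21.25 and 20.5 RPKM, and uncalled ones 16.1 and 16.2 RPKM, against 24.6 and 25 RPKM for all 8084. Transcripts on the heavy side thus had the densest footprints in both libraries. These densities were not divided by mRNA level, so mRNA abundance and ribosomes per mRNA cannot be told apart in them.

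The Rps25 line held 7704 of the transcripts and gave 53.2 and 52.2 RPKM for those higher in heavy, against 20.9 and 21.2 RPKM for those lower in heavy. The Rpl22 line held 7489 and gave 56.6 and 55.3 RPKM, against 21.0 and 20.9 RPKM. For this line the antibody label reads anti-HA even in the libraries titled total. The order of the 2 classes was the same in all 6 total libraries. The quartiles were wide, from 23.15 to 123.5 RPKM for the heavy side and from 9.28 to 63.5 RPKM for the light side in the first total library of the Rpl10a line, so the classes overlapped.

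The gap in footprint density was present within every quintile of mean RPM. RPM is not scaled by length while RPKM is, so these bins did not match the classes for length. Within the lowest quintile by mean RPM, the median footprint density in the Rpl10a line was 10.7 RPKM for transcripts higher in heavy and 7.16 for those lower in heavy. Within the middle quintile it was 37.2 and 17.5 RPKM, and within the next one up 65.8 and 33.6 RPKM. In the highest quintile it was 207 and 174 RPKM, and there the transcripts lower in heavy also exceeded the uncalled ones, at 137 RPKM. The same held for that quintile in the Rps25 line, with 169 RPKM for those lower in heavy and 135 for the uncalled, and in the Rpl22 line, with 157 and 122.

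**Figure D4:**
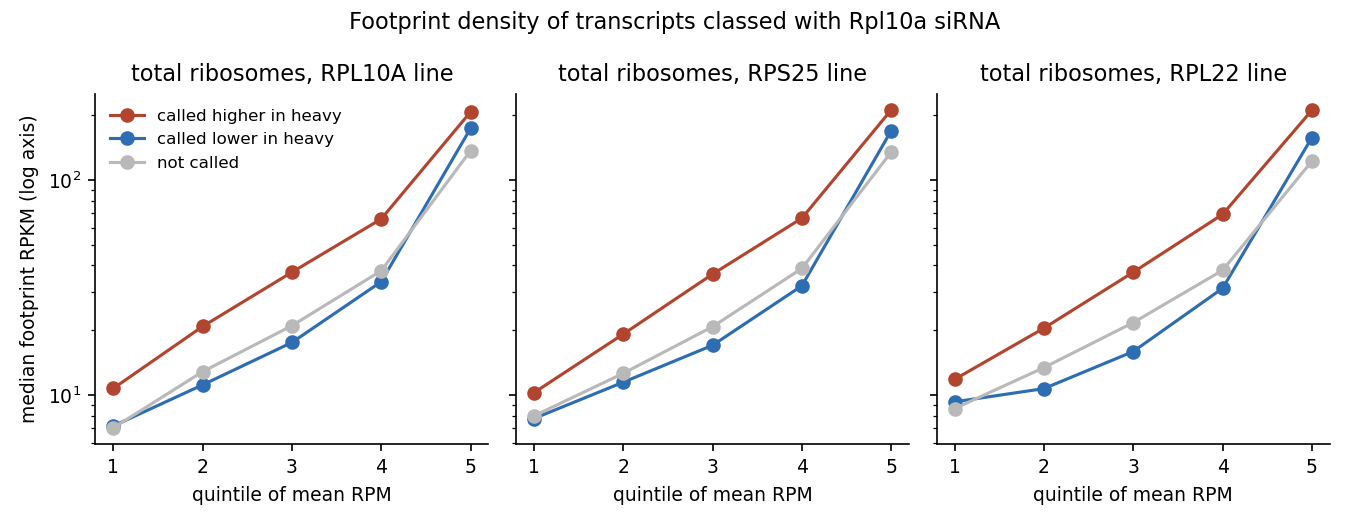
Median footprint density of total ribosomes (RPKM, log axis) in the Rpl10a, Rps25 and Rpl22 lines for transcripts called higher, lower or not in heavy against light with Rpl10a siRNA, by quintile of mean RPM. The heavy-side median is above the light-side median in every quintile of each line, for example 37.2 against 17.5 RPKM in the middle quintile of the Rpl10a line.

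Sorted by footprint density in place of RPM, the calls separated further. In the lowest quintile by footprint density in the Rpl10a line, 10.3% of transcripts were called higher in heavy and 25.8% lower, with a median difference of −0.11. In the highest quintile, 51.3% were called higher and 22.02% lower, with a median difference of 0.43. The share called lower was smallest in the next-to-highest quintile, at 16.9%, and not in the highest. Across the 8084 transcripts the difference and the log2 footprint density had a Pearson r of 0.17 and a Spearman rho of 0.26. The light-side tail thus reached into densely footprinted transcripts, as 130 of the highest quintile by footprint density were more than 2-fold lower in heavy, against 138 of the lowest quintile. With control siRNA the difference and the log2 footprint density had a Pearson r of 0.27 and a Spearman rho of 0.30.

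**Figure D5:**
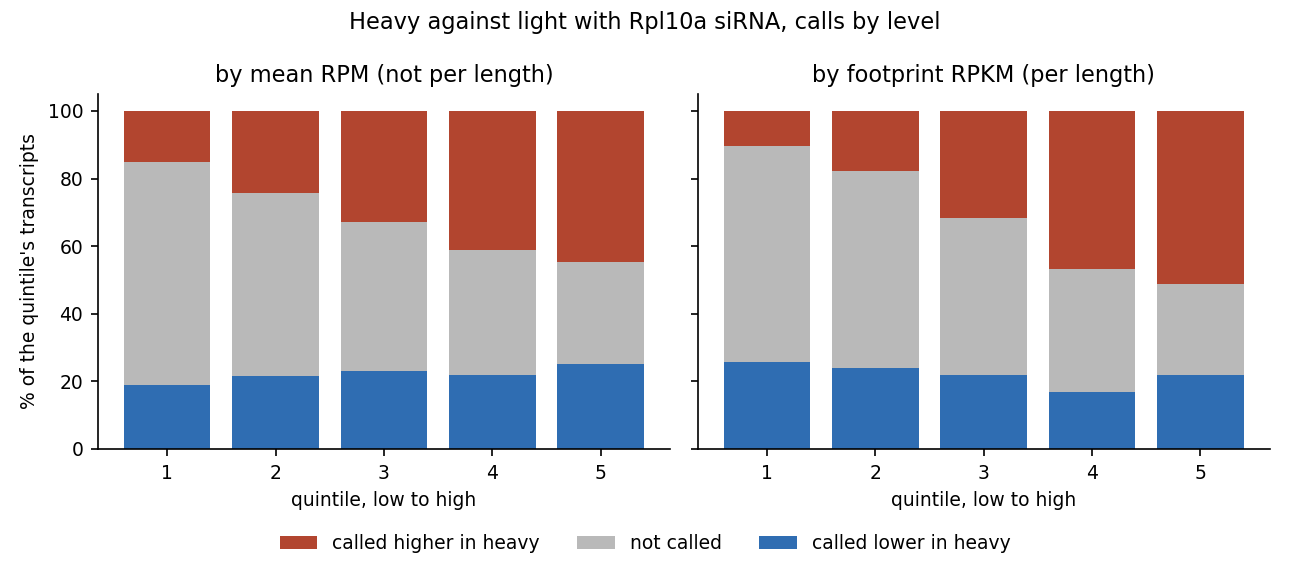
Percentage of transcripts called higher in heavy, not called and called lower in heavy with Rpl10a siRNA, by quintile of mean RPM (left, not per length) and of footprint RPKM in total ribosomes of the Rpl10a line (right, per length). The share called higher runs from 15.2% to 44.7% on the left and from 10.3% to 51.3% on the right.

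The named transcripts on the heavy side had footprint densities above the median in the Rpl10a line, and those on the light side below it. uc012dmm.1 had 342.8 and 337.1 RPKM in the total libraries of the Rpl10a line and 468.8 and 433.3 in those of the Rpl22 line. uc009okg.1 had 223.2 and 227.1 RPKM in the Rpl10a line. uc009fgp.1 had 23.2 and 18.1 RPKM there, below the medians of 24.6 and 25 RPKM over all transcripts, and 11.7 and 16.8 RPKM in the Rpl22 line. In the Rps25 line it had 27.7 and 28.3 RPKM, above that line's medians of 25.9 and 25.85 RPKM. uc008nzf.1 had 5.2 and 2.5 RPKM in the Rpl10a line and between 2 and 9.2 RPKM in the other lines, which placed it in the lowest quintile by footprint density of the Rpl10a line.

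The median capture ratios of tagged ribosomes differed slightly between the sides in 2 of the 3 lines, with wide overlap. In the RPL10A immunoprecipitation (IP), the median log2 ratio of IP to total footprints was −0.03 for transcripts called higher in heavy and 0.07 for those called lower, against 0.00 over all 8084. In the RPS25 IP these medians were −0.07 and 0.09, against 0.01 over 7704. In the RPL22 IP they were −0.04 and −0.04, against −0.04 over 7489. Ratios above 0 were found for 46.4% of transcripts higher in heavy and 55.5% of those lower in the RPL10A IP. These shares were 40.8% and 60.4% in the RPS25 IP, and 42.7% and 43.1% in the RPL22 IP. The classes overlapped, as in the RPS25 IP the quartiles ran from −0.21 to 0.11 for the heavy side and from −0.15 to 0.33 for the light side. No test was made of these ratios, which come from 2 IP and 2 total libraries a line. Their denominator is the total footprint density, which itself differed between the classes, and its part in the ratios was not tested.

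With control siRNA a similar number of transcripts differed in RPM between the pools, in a different shape. There, 2266 (28%) were higher and 2134 (26.4%) lower in heavy than in light fractions (limma, adjusted p below 0.05). The larger side with control siRNA turned with the setting, as with library totals set equal 2093 were higher and 2258 lower. The SD of the difference across transcripts was 0.68 with Rpl10a siRNA and 0.81 with control siRNA, and the 2 differences, which share no library, correlated with r = 0.80. The tail more than 2-fold higher in heavy held 301 transcripts with Rpl10a siRNA and 858 with control siRNA, and the tail more than 2-fold lower held 574 and 820. Single-library pairings gave 362 to 579 with Rpl10a siRNA and 857 to 946 with control siRNA for the heavy tail, ranges that did not overlap. For the light tail they gave 557 to 796 with Rpl10a siRNA and 721 to 956 with control siRNA, which overlapped. The pairings of an siRNA share libraries and are not independent of each other. The ratio of the lower to the higher tail was 1.91 with Rpl10a siRNA and 0.956 with control siRNA. The larger control tail was not fixed: it held 770 higher and 902 lower with library totals set equal, 998 and 700 with library medians set equal, and more on the lower side in 2 of 4 single-library pairings. No test of these tail counts was made, as an exact one has the same limit.

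Most transcripts called with one siRNA were called on the same side with the other. Over all 8084 transcripts, 28% were higher and 26.4% lower in heavy with control siRNA, and 31.6% and 22.1% with Rpl10a siRNA. Of the 2556 higher in heavy with Rpl10a siRNA, 1588 (62.1%) were also higher with control siRNA, where they made up 70.1% of that list. Of the 1784 lower in heavy with Rpl10a siRNA, 1377 (77.2%) were also lower with control siRNA, or 64.5% of that list. The calls with either siRNA came from the same fit and shared the standard error of each transcript. The part of this shared error in the overlap was not tested. Opposite calls were rare. Of the transcripts higher in heavy with Rpl10a siRNA, 39 were lower with control siRNA, and of those lower, 11 were higher with control siRNA.

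The transcripts at the ends of the Rpl10a siRNA distribution mostly lay at the same ends with control siRNA, in libraries that had no part in choosing them. The 100 transcripts with the lowest difference had a median of −2.09 with Rpl10a siRNA and −2.38 with control siRNA, where all 100 were called lower in heavy. The 100 with the highest difference had a median of 1.30 with Rpl10a siRNA and 1.38 with control siRNA, where 92 were called higher and 0 lower. Over all 8084 transcripts, 26.4% were called lower and 28% higher with control siRNA. Both lists of 100 held 43 transcripts of the highest quintile by mean RPM, a bin of 1617 of the 8084 transcripts. Their median footprint density in the Rpl10a line differed, at 111 RPKM for the highest 100 and 31.0 RPKM for the lowest 100.

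A difference between the siRNAs was itself tested as the heavy minus light difference with Rpl10a siRNA less that with control siRNA. It was called for 520 transcripts (6.43%), 231 (2.86%) toward heavy and 289 (3.57%) toward light (limma, adjusted p below 0.05). Of the 929 transcripts higher in heavy with Rpl10a siRNA and uncalled with control siRNA, 96 were called in this test. Of the 396 lower in heavy with Rpl10a siRNA and uncalled with control siRNA, 5 were called. Of the 50 opposite calls, 48 were called. The test uses the libraries that sorted transcripts into these classes, so that sorting fixed the direction of the called ones. For the 50 opposite calls the sorting also made a call in this test likely beforehand, so the 48 give no further support. These counts depend on the libraries and on the fit: limma called 0 transcripts without any 1 of 7 of the 8 libraries, with 1589 to 2237 at an unadjusted p below 0.05, and 2070 without the second Rpl10a heavy library. With the replicate number as a block it called 2520, or 2980 with the block within each siRNA, and then the larger side was toward heavy, with 1463 and 1801 calls against 1057 and 1179 toward light. How many transcripts differed between the siRNAs is therefore not settled by these libraries.

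Of the named transcripts, uc012dmm.1 had 380.7 and 399.3 RPM in heavy libraries with Rpl10a siRNA and 630.8 and 599.7 RPM with control siRNA, while its light values were alike, at 115.5 and 102.3 against 96.0 and 102.2 RPM. Its heavy values with Rpl10a siRNA were below both heavy values with control siRNA. Its difference from the control siRNA was −0.79 (SE 0.16, limma adjusted p = 0.0353). The other 3 were not called in this test without a block. uc009okg.1 gave −0.04 (SE 0.19, limma adjusted p = 0.900), uc009fgp.1 0.58 (SE 0.21, limma adjusted p = 0.108) and uc008nzf.1 0.80 (SE 0.33, limma adjusted p = 0.146). With the replicate number as a block uc009fgp.1 and uc008nzf.1 were called, with limma adjusted p = 0.0312 and 0.0059, and uc009okg.1 was not, with 0.869. Leaving out 1 library at a time, the value of uc012dmm.1 ran from −0.88 to −0.70 and its adjusted p from 0.0172 to 0.165.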

How the data were processed

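The authors deposited, per the file headers, RPM values per UCSC transcript for each RNA-seq library and RPKM values for each Ribo-Seq library. The RPM columns summed to between 943664 and 997808 with Rpl10a siRNA and between 1008006 and 1067209 with control siRNA, and the control sums are above what plain RPM allows. All were therefore handled as a signal that the authors had scaled by library size before deposit, with a further factor per library, whose origin was not given in the sources used here. Per the submitters' processing notes, the tools were cutadapt, Bowtie2, STAR (RNA-seq and Rpl22 libraries), with no versions, and the build was mm10. The labels name both a stranded mRNA kit and rRNA depletion for the RNA-seq libraries. Every listed transcript reached at least 2 RPM in some library. Values carry 1 decimal and no step of single reads was resolved at that rounding, so no count test was run and depth is unknown. limma 3.58.1 in R 4.3.3 was run on log2(RPM + 1) with a variance trend, in 1 fit of 4 groups of 2 libraries over 8084 transcripts, two-sided, with Benjamini-Hochberg adjustment and calls below 0.05. This scale understates fold changes of low values. The fit was tested on simulated data in which all groups had an equal spread and few transcripts changed, unlike these libraries. Footprint values are medians per class in RPKM, of single libraries or, within quintiles, of the 2 total libraries averaged as log2(RPKM + 1). IP values are medians per class of the mean log2(RPKM + 1) in IP less that in total libraries. Named transcripts had to be called, at or above the median level (45.8 RPM), and without overlap between pools; the 2 most changed per direction were kept, as 0 identifiers matched the 4 reference tables. Gene lists planned by symbol could not be applied. The comparison, the named-transcript rule and the footprint, level and tail descriptions were chosen with earlier results of these data known. Whether replicates came from separate cultures is not labelled, and p-values then reflect only how these samples spread, possibly for technical reasons. Replicates shared at most 0.866% identical values. Alternatives comprised pseudocounts of 0.5 and 5, a mean of at least 10 RPM, other scalings, no variance trend, robust moderation, a test against 1.5-fold, replicate blocks, fits of 4 libraries and leaving out each library.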

Additional observations from a re-analysis of the deposited data

Results flagged for a closer look

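The heavy minus light difference with Rpl10a siRNA departed from that with control siRNA in 520 of 8084 transcripts by a test of the difference itself (limma, adjusted p below 0.05). That count was 0 in 9 alternatives, 7 of which left out a single library (limma, 202 to 2443 at an unadjusted p below 0.05 over the 9), and reached 2070 without the second Rpl10a heavy library and 2520 or 2980 with replicate blocks. Among the named transcripts it did so for uc012dmm.1, which was higher in heavy fractions with either siRNA and had a value of −0.79 in that test (SE 0.16, limma adjusted p = 0.0353), as its difference was 1.83 with Rpl10a siRNA and 2.62 with control siRNA. The call of uc012dmm.1 was lost without any 1 of 7 of the 8 libraries. With all 8 libraries, that call was also lost without a variance trend (limma adjusted p = 0.0530) and in the test against a 1.5-fold difference. No group had the 4 samples that a search for outlying libraries needs.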

How the results depend on the processing

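The heavy against light counts with Rpl10a siRNA stayed within 1.5 times 4340 in 18 of 19 alternatives, and the 4 named differences kept their sign and call in all. The exception was the test against a 1.5-fold difference, which called 537, 181 higher and 356 lower; for control siRNA it called 1464, 812 higher and 652 lower, and for the difference between siRNAs 0 in either direction, with 202 at an unadjusted p below 0.05 (limma). Leaving out single libraries gave 3191 to 4388 calls with Rpl10a siRNA, the lowest without the first Rpl10a light library, and 3306 to 4808 with control siRNA. The difference between siRNAs then had 0 to 2070 calls, 0 to 1201 toward heavy and 0 to 869 toward light. Without a variance trend it had 0 (limma, 2443 at an unadjusted p below 0.05), 0 toward heavy and 0 toward light. Aligned library medians left 112 toward heavy, or 21.4% of its calls against 44.4%, as its median over all transcripts moved from 0.09 to −0.02. Replicate numbers were not taken to pair the pools, as no label ties them to a gradient or culture; same-numbered deviations of heavy and light libraries correlated with r = 0.621 with Rpl10a siRNA and 0.526 with control siRNA. In the counts with control siRNA the lower side was the larger with library totals set equal (2093 higher, 2258 lower), with a replicate block (2629, 2741), with a replicate block within siRNA (2696, 2862) and in a fit of its 4 libraries (2383, 2398). With a replicate block 5407 transcripts were called with Rpl10a siRNA and 2520 in the difference between siRNAs, 1463 toward heavy and 1057 toward light. With a replicate block within siRNA there were 5575, and 2980, 1801 toward heavy and 1179 toward light. The causes of these shifts were not tested. Lone libraries in a fit are assumed to vary like the other groups. Depth is unknown, so how far it limits low transcripts cannot be stated.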
